A study of Mus musculus with 24 samples.

Results

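The genes described here are those whose symbol is Mrpl or Mrps followed by a number, which encode most of the proteins of the mitochondrial ribosome. They were taken from probe sets that name a single gene, with the brightest probe set on average kept for each gene. This gave 77 genes (48 Mrpl and 29 Mrps) of 19351 genes measured. RefSeq lists 78 such coding genes in the mouse, and Mrpl53 was left out because its probe set also names Ccdc142. By published structures 50 of the 77 proteins belong to the large subunit and 26 to the small subunit. Mrps30 and Mrps18a are counted with the large subunit, where they sit in spite of their names. Mrps36 is counted with neither, since its protein was later assigned to the 2-oxoglutarate dehydrogenase complex of the citric acid cycle.

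The mitochondrial ribosome translates the few messages of the mitochondrial genome, all of which encode core subunits of the respiratory chain and the ATP synthase. Its ribosomal RNAs come from the mitochondrial genome, but every protein of the particle is encoded in the nucleus, made in the cytosol and imported. Some of these proteins have counterparts in bacterial ribosomes and others were added in mitochondria. Skeletal muscle fibres fill with mitochondria as they mature, and muscle is among the tissues affected when this translation fails.

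The samples were laser-captured tissue of C57BL/6J mouse embryos with no genetic or drug treatment, 8 arrays at each of 3 stages. At E11.5 and E12.5 the captured tissue was the pleuroperitoneal folds, from which the diaphragm forms, and at E16.5 the muscularised diaphragm. Each sample was hybridised to 1 Affymetrix Mouse Gene ST array after amplification of its cDNA. The labels do not say which embryos a sample came from or whether embryos were pooled, so p-values measure the spread between these samples, which may in part be technical. The folds were cut in transverse sections and the E16.5 diaphragm in sagittal sections, so the change from folds to diaphragm and plane of section cannot be told apart.

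Values are log2 intensities, so a difference of 1 is 2-fold. Array medians lay between 7.44 and 7.55. Of the 15 skeletal muscle markers 13 were higher at E16.5 than at E12.5 and 1, Myod1, was lower, and their mean per array was 12.21 to 12.68 at E16.5, above the 8.14 to 9.45 of E11.5 and the 8.18 to 11.40 of E12.5. Of all genes, 11.49% were higher at E16.5 than at E12.5 and 15.60% lower (limma, adjusted p under 0.05). Markers of liver cells, like those of muscle, moved with stage. The mean of 11 hepatocyte markers was 6.89 to 7.24 on the E11.5 arrays, 7.78 to 12.06 on those of E12.5 and 9.67 to 11.89 on those of E16.5, and all 11 were higher at E16.5 than at E12.5. Alb, for albumin, went from 6.15 ± 0.28 (SD, n = 8) at E11.5 through 10.44 ± 1.58 to 12.81 ± 0.57 at E16.5. E12.5 replicate 2 was the array highest for liver markers at that stage and replicate 3 the one highest for muscle markers. The E16.5 arrays formed 2 sets, replicates 1 to 4 and replicates 5 to 8, which the labels do not explain. Counts over all 77 genes at E16.5 are therefore given with and without each set. Counts for the subunits, origin classes, motifs, neighbours and most comparison lists use all 8 arrays of E16.5 only.

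Promoter sequence was at hand for 68 of the 77 genes, in RefSeq windows on GRCm38.p6 that run from 250 bases before to 50 bases after each annotated start. They were searched for 7 motifs, with no test of the shares. The NRF1 motif, GCGCA followed by any base and GCGC, was present in 13 of the 68 genes (19.1%), against 5.19% of all 27025 genes with a window and 7.17% of the 17492 coding genes. The ETS motif CCGGAAGT, bound by factors such as GABPA (NRF2), was present in 12 (17.6%, against 4.31% and 5.69%). The YY1 motif AAGATGGC was also present in 12 (17.6%, against 3.19% and 3.57%). Every motif was searched on both strands, and motifs may overlap. The E-box CACGTG was found in 5 genes (7.35%, against 8.09% and 8.91%), CCAAT in 26 (38.2%, against 41.1% and 42.3%), the TATA sequence TATAAA in 5 (7.35%, against 15.7% and 14.8%) and TNAAGGTCA, the motif of estrogen-related receptors, in 0 (against 1.43% and 1.19%). The windows had a median GC content of 58.5%, against 52.7% over all windows. A match is a description of the letters and not a measured binding site.

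Shown first are the 150 bases before the start for the genes with the largest rises and falls from E12.5 to E16.5 for which a window exists, with CCAAT or its complement ATTGG in capitals.
Mrps36, chr13:100744660-100744809, minus strand: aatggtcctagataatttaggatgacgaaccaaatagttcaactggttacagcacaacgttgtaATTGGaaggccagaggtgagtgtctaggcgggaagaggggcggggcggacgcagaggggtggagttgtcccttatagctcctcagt
Mrpl23, chr7:142532882-142533031, plus strand: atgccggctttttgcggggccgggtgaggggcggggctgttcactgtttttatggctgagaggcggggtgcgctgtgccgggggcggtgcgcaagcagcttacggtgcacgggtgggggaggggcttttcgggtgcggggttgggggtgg
Mrps6, chr16:92058186-92058335, plus strand: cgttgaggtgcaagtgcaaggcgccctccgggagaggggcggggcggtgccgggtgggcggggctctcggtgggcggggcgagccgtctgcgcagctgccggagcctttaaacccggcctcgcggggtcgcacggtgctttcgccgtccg
Mrps12, chr7:28741822-28741971, minus strand: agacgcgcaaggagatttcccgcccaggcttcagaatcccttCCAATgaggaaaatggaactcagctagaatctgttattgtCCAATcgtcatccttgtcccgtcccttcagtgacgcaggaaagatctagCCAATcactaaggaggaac
None of these 4 stretches held the NRF1, ETS or YY1 letters, but the full window of Mrps12 holds a YY1 match outside the bases shown and is counted among the 12. Mrps12 held CCAAT at 3 places and Mrps36 its complement at 1. Mrps28, the third of the largest rises, had no window.

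Shown next are stretches of 3 further genes that rose, chosen after the matches were seen because they carry an NRF1 motif (Mrpl9) or an ETS motif (Mrps27 and Mrpl51), in capitals.
Mrpl9, chr3:94443186-94443335, plus strand: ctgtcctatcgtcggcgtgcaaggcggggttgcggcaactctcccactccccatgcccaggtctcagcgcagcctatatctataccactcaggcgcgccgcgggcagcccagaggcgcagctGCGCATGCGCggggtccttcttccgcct
Mrps27, chr13:99344636-99344785, plus strand: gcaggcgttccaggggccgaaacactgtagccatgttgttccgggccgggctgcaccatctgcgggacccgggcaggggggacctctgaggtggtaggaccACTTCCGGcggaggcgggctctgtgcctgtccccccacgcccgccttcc
Mrpl51, chr6:125192050-125192199, plus strand: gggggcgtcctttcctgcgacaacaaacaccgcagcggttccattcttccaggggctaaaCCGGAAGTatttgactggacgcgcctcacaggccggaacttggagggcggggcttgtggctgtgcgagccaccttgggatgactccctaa
The letters of Mrpl9 read the same on either strand, and the ETS letters of Mrps27 lie on the other strand from those of Mrpl51. The full window of Mrps27 also holds a YY1 match outside the bases shown.

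In the folds, from E11.5 to E12.5, 0 of 77 genes passed the threshold in either direction in limma (adjusted p under 0.05 over all genes), against 0.331% of all genes higher and 0.0568% lower. At an unadjusted p under 0.05, 19 were higher (24.7%) and 1 lower (1.3%), against 6.27% and 8.14% of all genes. The median log2 change of the 77 genes was 0.13, against -0.03 for all genes, and 60 of them (77.9%) had a change above 0, against 42.2% of all genes. Nearest to the threshold were Mrpl41, a mitochondria-specific protein of the large subunit, with 0.48 ± 0.14 (SE, adjusted p = 0.155), Mrpl27 with 0.45 ± 0.16 (0.232) and Mrps18a with 0.45 ± 0.17 (0.244). Mrpl41 ranged from 10.08 through a median of 10.96 to 11.21 at E11.5 and from 10.96 through 11.27 to 11.61 at E12.5, so the stages overlapped.

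By E16.5 most of the genes had a change above 0, a minority passed the threshold as higher, and few passed as lower. Compared with E12.5, 20 of 77 (26.0%) were higher and 2 (2.6%) were lower in limma, against 11.49% of all genes higher and 15.60% lower. The other 55 did not pass. The median change was 0.18, against -0.02 over all genes. A change above 0 was found in 57 of the 77 (74.0%), against 44.3% of all genes. At an unadjusted p under 0.05 in limma, 36.4% were higher and 2.6% lower, against 15.0% and 20.7% of all genes. All 8 arrays of E16.5 lay above all 8 of E12.5 for 8 of the genes, against 4.69% of all genes, and below them for 0, against 5.4%. Mrps36 alone changed by 2-fold or more. Compared with E11.5, 31 genes (40.3%) were higher and 2 (2.6%) lower, against 13.85% and 19.63% of all genes, with a median of 0.29 against -0.08. Of these, 6 were higher and 1 lower without overlap of arrays, against 5.22% and 3.86% of all genes. The comparisons share the E16.5 arrays. Of the 20 genes higher than at E12.5, 17 were also among the 31, and Mrpl3, Mrpl10 and Mrpl37 were not.

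**Figure D1:**
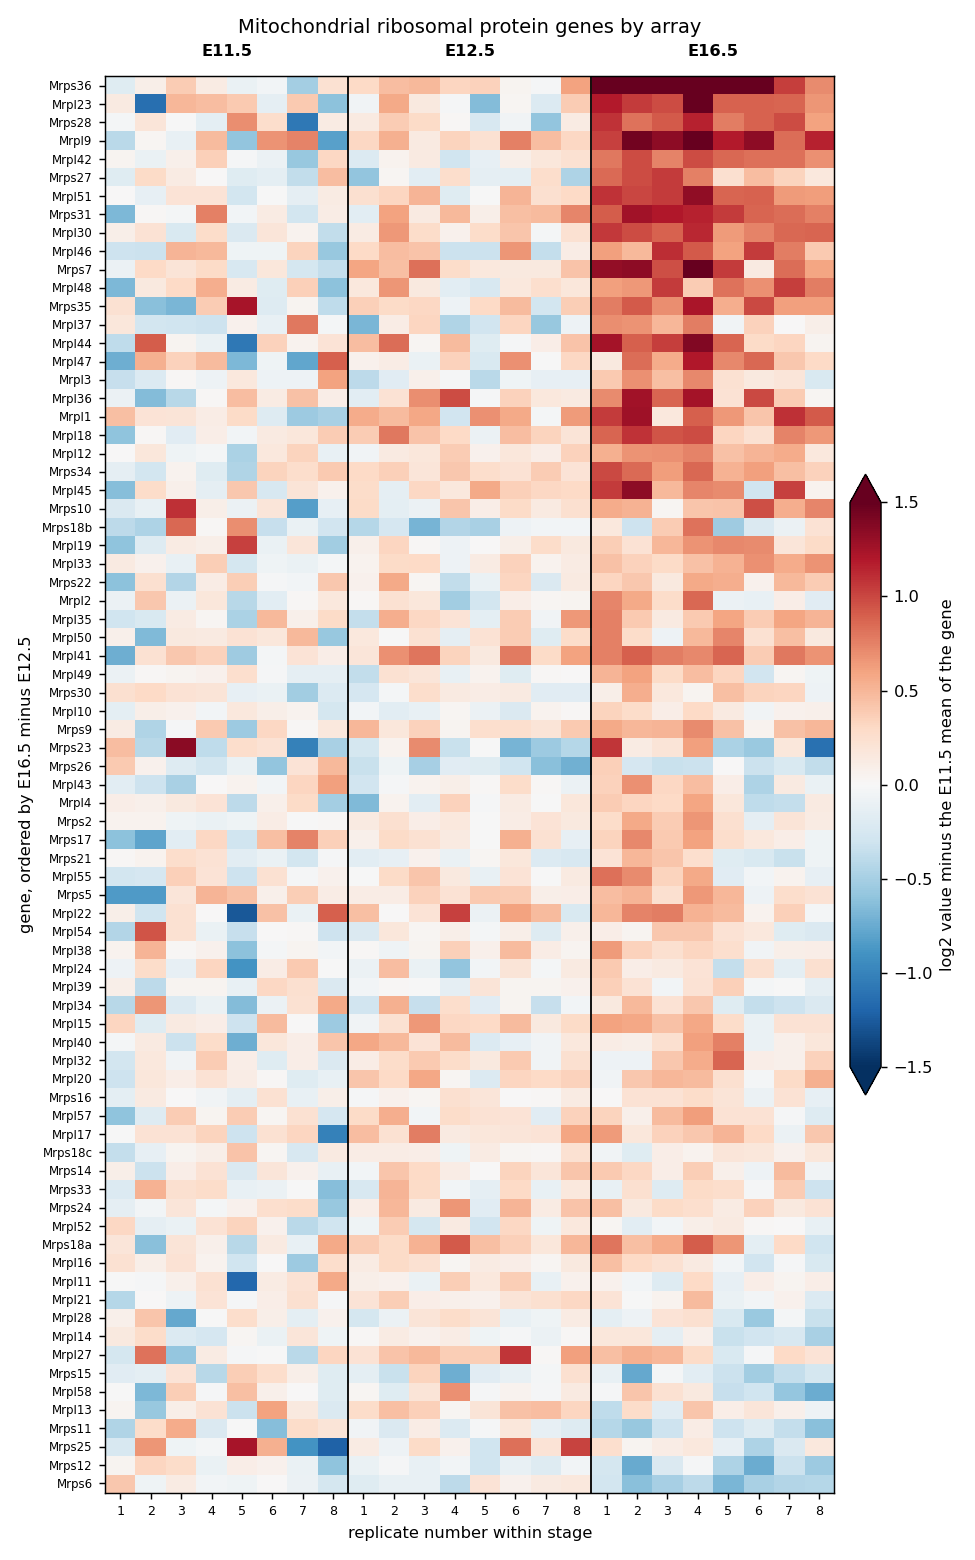
Log2 value of each of the 77 genes (rows, ordered by the change from E12.5 to E16.5) on each of 24 arrays (columns, by stage and replicate number), relative to the gene's mean at E11.5. Colours saturate at 1.5 on either side. The upper rows are red across the E16.5 arrays, most of them more strongly in replicates 1 to 4. Rows further down vary, since order and colour use different stages. Mrps26 and Mrps23, in the middle, are blue on some E16.5 arrays, and Mrpl27, among the lower rows, is red on most. The last rows, Mrps12 and Mrps6, are blue there.

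The rise was not even between the E16.5 arrays. The median over the 77 genes was 9.21 to 9.44 at E11.5 and 9.19 to 9.57 at E12.5. At E16.5 it was 9.82, 9.76, 9.71 and 9.92 in replicates 1 to 4 and 9.60, 9.42, 9.55 and 9.38 in replicates 5 to 8, so the second set lay partly within the range of E12.5. In 63 of 77 genes replicates 1 to 4 had the higher mean, with a median difference of 0.24. For 22 genes (28.6%) the 4 arrays of the first set lay above all 4 of the second, and for 1 (1.3%) below. The same held for 6.43% and 5.14% of all genes. Mrps23 (by 0.995, with overlap), Mrpl44 (0.76) and Mrpl58 (0.69), a rescue factor for stalled ribosomes built into the large subunit, differed most. The sets differed alike in muscle markers (10 of 15 higher without overlap, median 0.34) and in subunits of respiratory complex I (24 of 34, median 0.33), while the mean of the proliferation markers was 9.46 to 9.67 in the first set and 9.86 to 10.14 in the second. Endothelial markers (mean 8.99 to 9.30 against 8.28 to 8.67) and erythroid markers (7.71 to 8.27 against 8.42 to 9.01) also separated the sets without overlap, and cytosolic ribosomal proteins were lower in the first (12.30 to 12.33 against 12.37 to 12.47). The means of hepatocyte markers overlapped. Which of these differences belongs with which was not tested.

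Without replicates 1 to 4, 9 genes were higher at E16.5 than at E12.5 (11.7%, against 7.93% of all genes) and 4 lower (5.19%, against 10.1%), and the median was 0.027. All 9 were among the 20 above: Mrpl9, Mrpl23, Mrpl30, Mrpl33, Mrpl42, Mrpl48, Mrpl51, Mrps28 and Mrps36. Without replicates 5 to 8, 26 were higher and 1 lower, against 11.7% and 13.7% of all genes, with a median of 0.31 against -0.02. Called higher under either omission were 7 genes, Mrpl9, Mrpl23, Mrpl30, Mrpl42, Mrpl51, Mrps28 and Mrps36. Against E11.5, 19 were higher (24.7%, against 10.2%) and 4 lower (5.19%, against 11.9%) without replicates 1 to 4. Without replicates 5 to 8 the counts were 35 and 1, against 2518 and 2963 of all 19351 genes. Without E12.5 replicates 2 and 3, 21 were higher and 1 lower at E16.5 than at E12.5, against 11.1% and 14.8% of all genes. With the mean of the hepatocyte markers as a covariate, which itself follows stage, 7 genes (9.09%) were higher and 0 lower than at E12.5, against 8.03% and 9.69% of all genes, and 4 (5.19%) were higher and 0 lower than at E11.5, against 5.08% and 4.15%. The shares higher in that fit were thus near those of all genes, while the medians were 0.13 and 0.26, against -0.02 and -0.07.

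**Figure D2:**
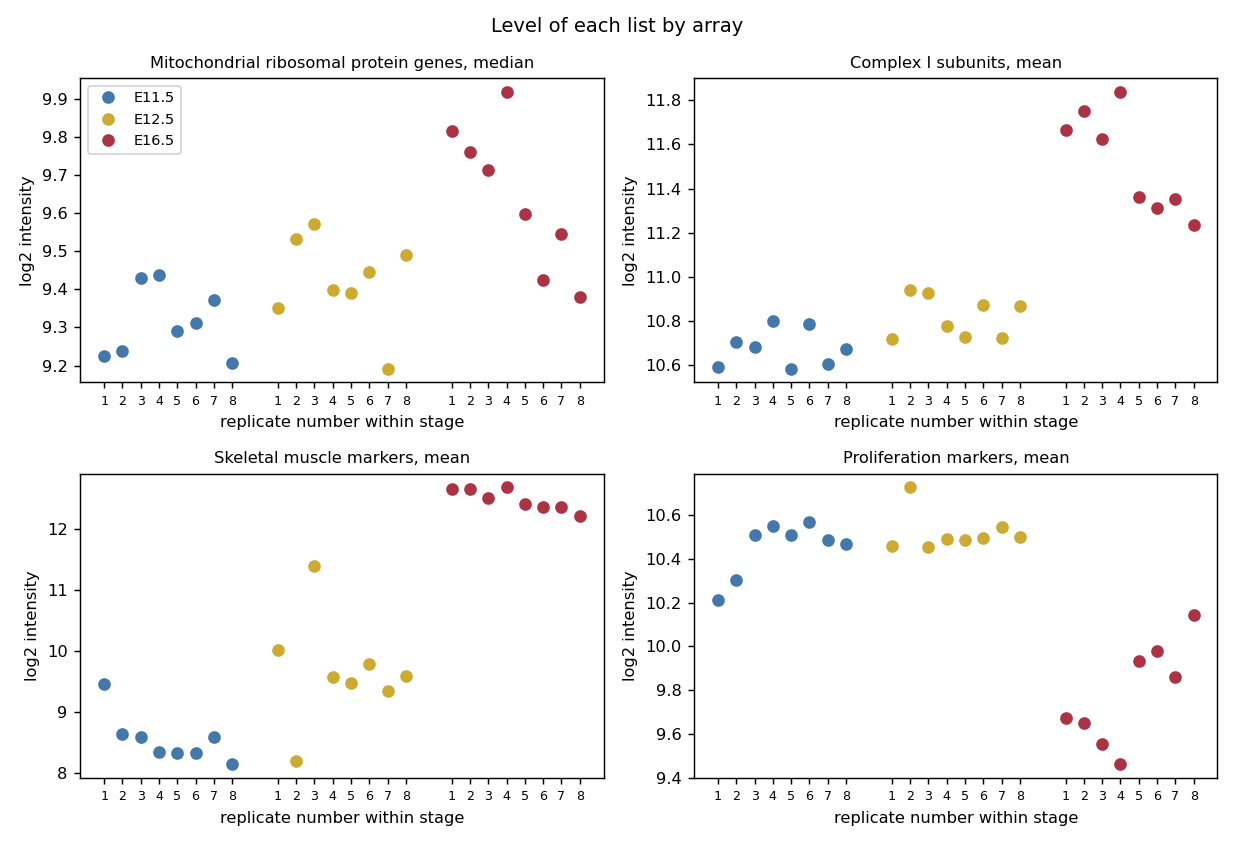
Level of 4 gene lists on each array, as log2 intensity against the replicate number within each stage. The median of the 77 mitochondrial ribosomal protein genes reaches 9.92 at E16.5 and drops to between 9.38 and 9.60 in replicates 5 to 8. Complex I subunits and muscle markers are also lower, and proliferation markers higher, in those 4 arrays.

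The large subunit makes the peptide bonds and releases the growing chain at the inner membrane. Of its 50 proteins, 13 genes (26.0%) were higher at E16.5 than at E12.5 and 0 lower (median 0.20). Of all genes, 11.49% were higher and 15.60% lower (median -0.02). Against E11.5, 20 (40.0%) were higher and 0 lower (median 0.31), against 13.85% and 19.63% of all genes (median -0.08). Mrpl23, whose bacterial counterpart lies at the exit of the peptide tunnel, ranged from 9.09 through a median of 10.48 to 10.71 at E11.5, from 9.57 through 10.22 to 10.79 at E12.5 and from 10.88 through 11.15 to 11.71 at E16.5. All E16.5 arrays were above all arrays of the folds, and the change from E12.5 was 0.98 ± 0.20 (SE), or 1.97-fold (limma, adjusted p = 5.78e-04). Mrpl9, another protein with a bacterial counterpart, ran from 7.65 through 8.42 to 9.20 at E11.5, from 8.60 through 8.79 to 9.22 at E12.5 and from 9.30 through 9.72 to 10.17 at E16.5. It rose by 0.87 ± 0.18 from E12.5 and by 1.26 ± 0.18, or 2.39-fold, from E11.5 (7.14e-04 and 7.21e-06).

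Among the large-subunit proteins added in mitochondria, Mrpl42 had the narrowest spread at E16.5 (SD 0.10) of those that rose. It lay between 10.91 and 11.84 at E11.5, between 11.18 and 11.70 at E12.5 and between 12.16 and 12.46 at E16.5, without overlap, and its change from E12.5 was 0.83 ± 0.10 (limma, adjusted p = 8.11e-07). From E11.5 to E12.5 Mrpl42 had a change of 0.00 ± 0.10 (0.987). Mrpl51, by contrast, had intermediate values at E12.5: 11.04 through 11.31 to 11.52 at E11.5, 11.14 through 11.58 to 11.82 at E12.5, and 11.94 through 12.25 to 12.64 at E16.5. Its change from E11.5 to E12.5 was 0.24 ± 0.11, with overlap, and did not pass (limma, adjusted p = 0.306). From E12.5 to E16.5 Mrpl51 rose by 0.69 ± 0.11 (1.66e-05). Mrpl30, which has a bacterial counterpart, ran from 9.95 through 10.23 to 10.63 at E12.5 and from 10.61 through 10.86 to 11.10 at E16.5, with an overlap of the nearest arrays, and rose by 0.64 ± 0.10 (2.56e-05).

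The other large-subunit genes higher than at E12.5 changed by 0.22 to 0.62. They were Mrpl46 (0.62 ± 0.17), Mrpl48 (0.61 ± 0.16), Mrpl37 (0.54 ± 0.17), Mrpl3 (0.47 ± 0.13), Mrpl18 (0.38 ± 0.14), Mrpl12 (0.37 ± 0.10), Mrpl33 (0.34 ± 0.08) and Mrpl10 (0.22 ± 0.07). Mrpl10 and Mrpl12 belong to the stalk that recruits translation factors, and Mrpl12 has also been found to bind the mitochondrial RNA polymerase. Mrpl18 was just inside the threshold (adjusted p = 0.0420) and lost its call on leaving out any 1 of 11 arrays (adjusted p up to 0.0984), and Mrpl37 on leaving out E12.5 replicate 1 (0.0501). Just outside were Mrpl1 (0.41 ± 0.17, 0.0863), Mrpl49 (0.25 ± 0.11, 0.0939) and Mrpl19 (0.35 ± 0.16, 0.107). Mrpl1 rose from E11.5 by 0.81 ± 0.17 (7.39e-04), and Mrpl41 did so by 0.73 ± 0.14 (2.77e-04).

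Of the pair with small-subunit names in the large subunit, Mrps30 had 0.23 ± 0.11 from E12.5 to E16.5 (adjusted p = 0.145) and Mrps18a had -0.04 ± 0.17 (0.898). The paralogs of Mrps18a in the small subunit, Mrps18b and Mrps18c, had 0.37 ± 0.19 (0.184) and -0.02 ± 0.09 (0.920). None of these 4 genes passed the threshold in any comparison.

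The small subunit holds the message and reads its codons. Of its 26 proteins, 6 genes (23.1%) were higher and 2 (7.69%) lower at E16.5 than at E12.5 (median 0.15). Of all genes, 11.49% were higher and 15.60% lower (median -0.02). Against E11.5, 10 (38.5%) were higher and 2 (7.69%) lower (median 0.22), against 13.85% and 19.63% of all genes (median -0.08). Mrps28 ran from 8.67 through 9.80 to 10.43 at E11.5, from 9.15 through 9.81 to 10.12 at E12.5 and from 10.35 through 10.65 to 10.90 at E16.5. Its E16.5 arrays were above all E12.5 arrays and overlapped the highest at E11.5, and the change from E12.5 was 0.89 ± 0.17 (limma, adjusted p = 2.17e-04). Mrps31 ran from 8.73 through 9.35 to 9.62 at E12.5 and from 9.64 through 9.87 to 10.14 at E16.5, a rise of 0.65 ± 0.15 (0.00141), and from E11.5 the rise was 2.01-fold. Mrps7, whose bacterial counterpart binds ribosomal RNA in the head of the small subunit, rose by 0.62 ± 0.17 from E12.5 and by 0.99 ± 0.17 from E11.5. Also higher were Mrps35 (0.58 ± 0.20, adjusted p = 0.0298), which lost its call on leaving out any 1 of 5 arrays, and Mrps34 (0.37 ± 0.11, 0.0135).

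Mrps27, a protein with pentatricopeptide repeats found in mitochondrial ribosomes only, had the lowest probe signal of the genes that rose. It ran from 6.31 through 6.61 to 7.14 at E11.5, from 6.08 through 6.54 to 6.94 at E12.5 and from 6.83 through 7.29 to 7.73 at E16.5. On 6 arrays it was under the lower quartile of all genes, which lay between 6.40 and 6.64, and its change from E12.5 was 0.72 ± 0.15 (limma, adjusted p = 5.43e-04). Mrpl22, on 1 array, was the other gene of the 77 ever under that quartile. Mrps27 averaged 7.59 in E16.5 replicates 1 to 4 and 6.98 in replicates 5 to 8, without overlap. Its call was lost when replicates 1 to 4 were left out.

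The falls were both in small-subunit proteins with bacterial counterparts. Mrps6 ran from 9.05 through 9.26 to 9.72 at E11.5, from 8.92 through 9.29 to 9.52 at E12.5 and from 8.63 through 8.85 to 9.03 at E16.5. All 8 arrays of E16.5 were below all 8 of E11.5, and the change from E12.5 was -0.45 ± 0.09, or 1.37-fold lower (limma, adjusted p = 4.30e-04). Mrps12, the counterpart of a bacterial protein that governs the accuracy of decoding, ran from 10.09 through 10.28 to 10.36 at E12.5 and from 9.62 through 9.99 to 10.37 at E16.5. Its change of -0.30 ± 0.11 was just inside the threshold (0.0471), a call that was lost on leaving out any 1 of 17 arrays. From E11.5 it was -0.42 ± 0.11 (0.00575). Mrps11, next in size at that comparison, did not pass (-0.34 ± 0.14, 0.0599).

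A further 14 genes passed against E11.5 but not against E12.5, a contrast between the calls that was not itself tested. In the large subunit these were Mrpl1, Mrpl44 (0.76 ± 0.22), Mrpl41, Mrpl36 (0.71 ± 0.19), Mrpl45 (0.64 ± 0.18), which faces the inner membrane, Mrpl47 (0.63 ± 0.22), Mrpl35 (0.47 ± 0.14), Mrpl19 (0.46 ± 0.16), Mrpl15 (0.35 ± 0.13) and Mrpl20 (0.29 ± 0.11). In the small subunit they were Mrps10 (0.52 ± 0.17), Mrps9 (0.46 ± 0.12), Mrps22 (0.36 ± 0.14) and Mrps2 (0.29 ± 0.08). Mrps22 (limma, adjusted p = 0.0474), Mrpl20 (0.041) and Mrpl15 (0.0393) lay just inside the threshold and lost their calls when single arrays were left out, as did Mrpl19, Mrpl47 and Mrps10. Without E16.5 replicates 1 to 4, only Mrpl1, Mrpl35, Mrpl41 and Mrps10 of the 14 stayed called. Mrpl35 and Mrps10 were in turn lost without replicates 5 to 8, so only Mrpl1 and Mrpl41 stayed called under either omission. Just outside were Mrpl50 (0.37 ± 0.15, 0.0525), Mrpl3 (0.32 ± 0.13, 0.0543) and Mrps11.

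**Figure D3:**
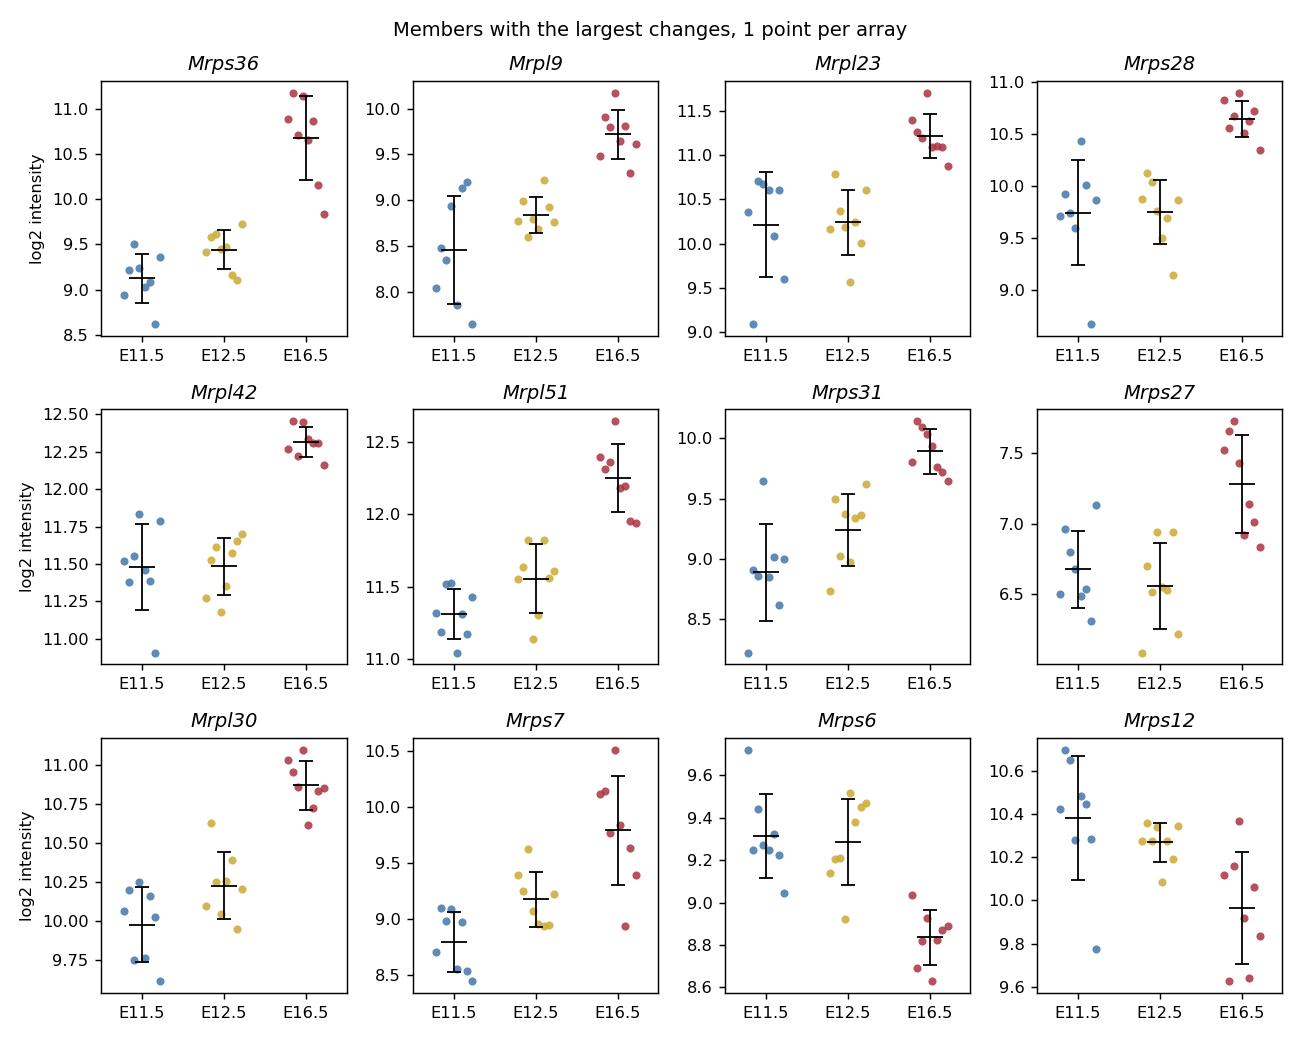
Log2 intensity of 12 genes on every array at E11.5 (blue), E12.5 (yellow) and E16.5 (red), 8 points each, with the mean and SD as bars. Vertical axes differ between panels. Mrpl9, Mrpl23, Mrpl42, Mrpl51 and Mrps36 show no overlap between E16.5 and either earlier stage, Mrps28 and Mrps31 none with E12.5, and Mrps6 and Mrps12 are the falls.

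Mrps36 showed the largest change of the 77 genes, and it is the gene whose product was moved out of the ribosome. It ran from 8.61 through 9.15 to 9.51 at E11.5, from 9.11 through 9.46 to 9.73 at E12.5 and from 9.83 through 10.79 to 11.18 at E16.5, where replicates 7 and 8 were lowest. The change was 1.24 ± 0.16 from E12.5, or 2.36-fold, and 1.55 ± 0.16 from E11.5, or 2.94-fold (limma, adjusted p = 1.58e-06 and 3.17e-08). A further probe set for the same gene, from 7.67 ± 0.36 (SD, n = 8) at E12.5 to 9.18 ± 0.57 at E16.5, gave 1.51 ± 0.21. Without Mrps36 the count of ribosomal proteins higher than at E12.5 is the 13 and 6 given above for the subunits.

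Several probe sets served 7 of the genes. For Mrpl23 the further set gave 0.76 ± 0.19 from E12.5 to E16.5, and for Mrpl51 it gave 0.96 ± 0.20, both in the direction of the set kept. In a limma fit of all probe sets, Mrpl41 had 0.25 ± 0.14 (adjusted p = 0.219) with the set kept and 0.25 ± 0.08 (0.0230) with the other, so its call at this step depends on the probe set. From E11.5 to E12.5 Mrpl41 had 0.48 ± 0.14 (0.160) with the set kept and only 0.17 ± 0.08 (0.339) with the other. From E11.5 to E16.5 these sets gave 0.73 ± 0.14 and 0.43 ± 0.08. Mrps33 had -0.03 ± 0.14 and 0.17 ± 0.28, which differ in sign and neither of which passed. RefSeq lists pseudogenes of Mrpl23, Mrpl27, Mrpl48 and Mrps36, and signal from a transcribed copy cannot be told apart from that of the gene.

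By origin, 9 of the 29 proteins added in mitochondria (31.0%) were higher and 0 lower at E16.5 than at E12.5 (median 0.25). Of the 47 with bacterial counterparts, 10 (21.3%) were higher and 2 (4.26%) lower (median 0.13). Of all genes, 11.49% were higher and 15.60% lower. Against E11.5 the counts were 12 (41.4%) and 0 (median 0.25) and 18 (38.3%) and 2 (4.26%, median 0.29), against 13.85% and 19.63% of all genes. The order of the medians thus turned between the comparisons. The difference between these classes was not tested.

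The spread within a stage differed widely between genes. The SD over 8 arrays ran from 0.07 to 0.81 at E11.5, with a median of 0.34, from 0.07 to 0.44 at E12.5 (median 0.22) and from 0.10 to 0.70 at E16.5 (median 0.25). Mrps25 (SD 0.81), Mrps23 (0.73) and Mrpl47 (0.66) varied most, each at E11.5. Mrps23 went from 9.27 ± 0.73 through 9.08 ± 0.44 to 9.27 ± 0.70 over the 3 stages (mean ± SD, n = 8), with a change from E12.5 of 0.19 ± 0.30. Mrpl47 had 0.48 ± 0.22 (adjusted p = 0.111). For such genes the precision of 8 arrays was too low to show a change of the size that passed in Mrpl12 or Mrpl33.

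The rest of the machinery of mitochondrial translation differed between lists. Of all genes, 11.49% were higher and 15.60% lower at E16.5 than at E12.5, and 13.85% and 19.63% than at E11.5. Of 4 mitochondrial ribosome proteins with other names, Gadd45gip1 (0.62 ± 0.10) and Ptcd3 (0.40 ± 0.11) rose from E12.5 to E16.5, and Chchd1 (0.09 ± 0.08) and Dap3 (-0.21 ± 0.20) did not pass. Of 15 translation factors, 5 (33.3%) were higher and 0 lower than at E12.5, and 8 (53.3%) and 0 than at E11.5. They included Taco1, the translational activator of the Cox1 message (0.85 ± 0.18), Gfm1, the elongation factor that moves the ribosome along (0.63 ± 0.12), Mtrf1l, a release factor (0.59 ± 0.15), and Tufm, the elongation factor that delivers tRNAs (0.40 ± 0.13). Lrpprc, which stabilises mitochondrial messages, was the fifth (0.25 ± 0.07).

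Of 31 assembly and RNA modification factors, 2 (6.45%) were higher than at E12.5 and 1 (3.23%) lower (median 0.06). Both shares lay below those of all genes (11.49% and 15.60%). The risers were Trmt2b, an RNA methyltransferase (0.76 ± 0.13), and Grsf1, of the RNA granules (0.55 ± 0.11). The gene that fell was Trub2, a pseudouridine synthase (-0.39 ± 0.09). Of 19 mitochondrial aminoacyl-tRNA synthetases and amidotransferase subunits, 0 were higher and 1 (5.26%) lower, Pars2 (-0.63 ± 0.18), shares again below those of all genes. Of 10 genes for mitochondrial transcription and DNA upkeep, 1 (10.0%, near the share of all genes) was higher, the elongation factor Tefm (0.65 ± 0.18), and 0 lower. Tfam, which packages mitochondrial DNA, had 0.04 ± 0.17 and the RNA polymerase Polrmt 0.00 ± 0.08. The other members, none past the threshold, were Top1mt (0.34 ± 0.15), Twnk (0.21 ± 0.15), Tfb2m (0.19 ± 0.50), Polg (0.13 ± 0.07), Mgme1 (-0.13 ± 0.10), Ssbp1 (-0.15 ± 0.07) and Polg2 (-0.25 ± 0.20). Against E11.5 these 3 lists had 6 (19.4%), 3 (15.8%) and 3 (30.0%) genes higher and 0 lower, against 13.85% and 19.63% of all genes. None of the lists of mitochondrial translation had a gene past the threshold from E11.5 to E12.5.

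Complex I, whose mitochondrial subunits the ribosome makes, was set beside it through its nuclear subunits. Of 34, 33 were higher at E16.5 than at E12.5 (median 0.71) and 33 than at E11.5 (median 0.89), against 11.49% and 13.85% of all genes. Ndufa7 did not pass in either. Its mean per array was 10.59 to 10.80 at E11.5, 10.72 to 10.94 at E12.5 and 11.24 to 11.84 at E16.5. Ndufb10 (1.28 ± 0.16), Ndufs1 (1.14 ± 0.13), Ndufa6 (1.14 ± 0.09) and Ndufs7 (0.93 ± 0.14) changed most from E12.5. The largest rise of a mitochondrial ribosomal gene from E12.5, leaving Mrps36 aside, was that of Mrpl23 (0.98). The 53 cytosolic ribosomal proteins gave 0 higher and 15 (28.3%) lower than at E12.5 (median -0.08), and 0 and 10 (18.9%) than at E11.5. Of all genes, 15.60% and 19.63% were lower in these comparisons. Rpl12 (-0.91 ± 0.25), Rpl30 (-0.42 ± 0.10), Rplp2 (-0.40 ± 0.08) and Rpl7a (-0.39 ± 0.13) fell most. Without E16.5 replicates 1 to 4 complex I had 24 of 34 higher than at E12.5 and the cytosolic proteins 9 of 53 lower. Of all genes, 7.93% were higher and 10.1% lower in that fit.

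**Figure D4:**
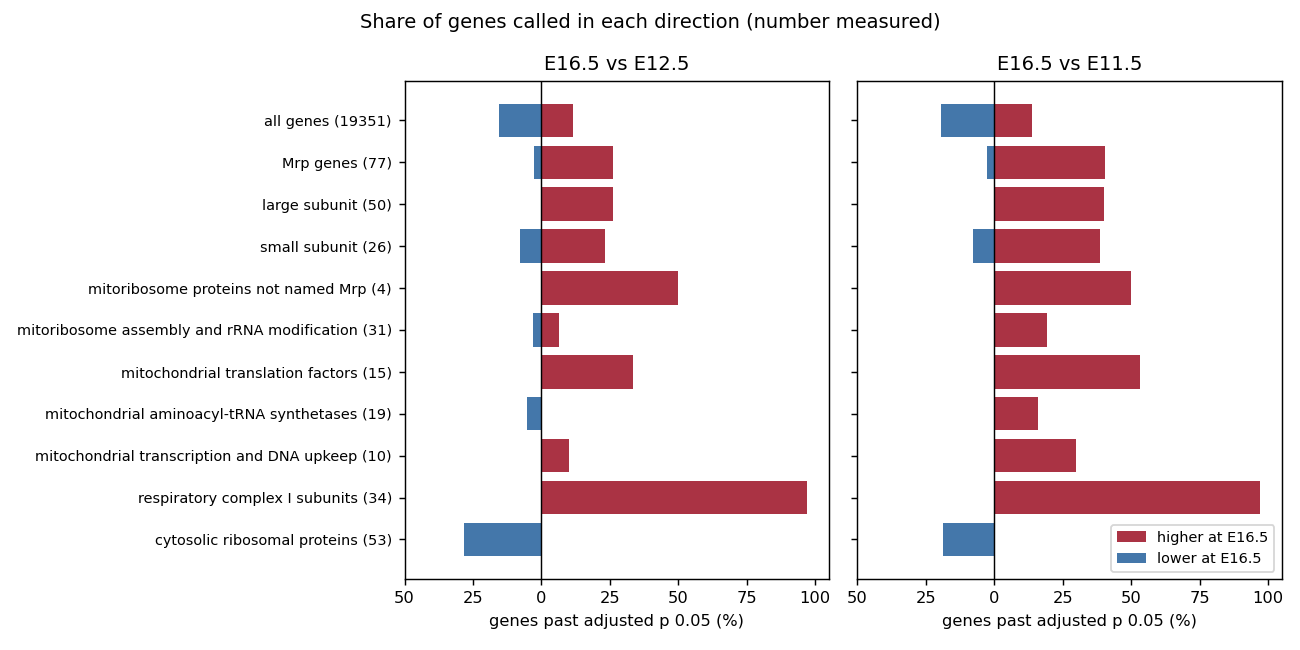
Share of the genes of each list past an adjusted p of 0.05 in limma, higher (red, to the right) or lower (blue, to the left) at E16.5, against E12.5 and against E11.5, with the number measured in brackets. The 77 genes (Mrp genes, 26.0% and 40.3% higher) stand between all genes (11.49% and 13.85%) and complex I (97.1% in each), and cytosolic ribosomal proteins have 0 higher.

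Markers of other cells differed between the stages beside these changes. Proliferation markers were lower at E16.5 than at E12.5 in 11 of 11, while 11.49% of all genes were higher and 15.60% lower. Endothelial markers were higher in 7 of 8, with a mean per array of 8.28 to 9.30 at E16.5 against 7.72 to 8.34 at E12.5. The lung epithelium list had 2 of 7 higher (Sftpc and Cdh1) and 1 lower (Sox9), with Sftpc at 10.60 ± 1.75 at E16.5 and Nkx2-1 and Epcam below the array median at every stage mean. Of 7 erythroid markers 3 were lower, all embryonic globins. Macrophage markers had 2 of 9 higher and 0 lower, cardiomyocyte markers 2 of 7 and 1, and mesothelium markers 2 of 6 and 1. Neuron markers had 0 of 8 higher and 2 lower, Schwann cell markers 0 of 4 and 1, and cartilage markers 0 of 6 and 0. The part of these cells in the changes of the mitochondrial ribosomal genes was not tested. In captured tissue of mixed cells, more cells of a type and more RNA per cell cannot be told apart.

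Many of these genes start beside a gene that runs the other way. Of the 68 with a RefSeq window, 26 (38.2%) had a divergent neighbour whose start was within 1000 bases, against 12.3% of all genes and 13.2% of coding genes. The neighbour was a coding gene for 24. Mrpl46 and Mrps11 form such a pair with each other, 42 bases apart: Mrpl46 rose from E12.5 to E16.5 (0.62 ± 0.17) while Mrps11 had -0.27 ± 0.14 (adjusted p = 0.157). Among the 21 other coding neighbours that were measured, 32 to 935 bases away, 3 were higher and 6 lower, with a median of -0.15. Their 21 ribosomal partners had 6 higher and a median of 0.25. Of all genes, 11.49% were higher and 15.60% lower, with a median of -0.02, and the difference between neighbours and partners was not tested. The signs were opposite in 12 of the 21 pairs.

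Mrps27 and Ptcd2, a pentatricopeptide protein of mitochondria, start 108 bases apart and rose alike (0.72 ± 0.15 and 0.72). Mrpl47 lies beside Ndufb5, a complex I subunit that rose by 0.84. In contrast, Mrpl51 rose by 0.69 and Ncapd2, a condensin subunit that starts 614 bases away, fell by 0.94 on the log2 scale. Mrpl57, with 0.01, lies 76 bases from Ska3, a kinetochore gene that fell by 1.35. Beside Mrps12 lies Sars2, for the mitochondrial seryl-tRNA synthetase (-0.11, adjusted p = 0.557). The ETS motif was present in 6 of the 17 genes with a window that rose at this step, and 12 genes with it had a median change of 0.33 against 0.14 in the 56 without. With YY1 the median was 0.26 (4 of 12 higher and 1 lower) against 0.16 without, and with the E-box 0.30 (1 of 5 higher) against 0.18. CCAAT gave 0.21 (7 of 26 higher and 1 lower) against 0.15, and TATAAA 0.14 (2 of 5 higher) against 0.18. For NRF1 the medians were 0.18 and 0.18, with 3 of 13 and 14 of 55 higher. These are descriptions with no test.

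**Figure D5:**
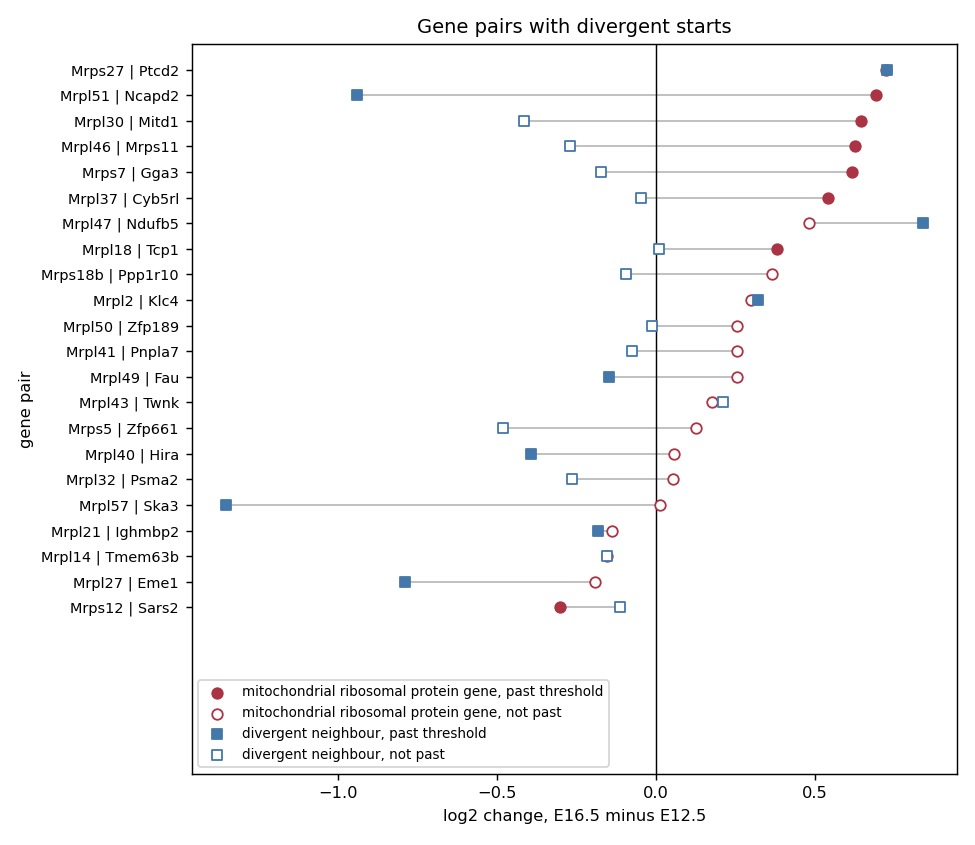
Log2 change from E12.5 to E16.5 of mitochondrial ribosomal protein genes (red circles) and of the coding gene that starts within 1000 bases and runs the other way (blue squares), 1 pair per row. Filled symbols passed an adjusted p of 0.05. Mrps27 and Ptcd2 coincide, and Mrpl51 and Ncapd2 lie on opposite sides of 0.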

How the data were processed

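Values deposited by the authors are RMA intensities, 1 per probe set and array, read here as log2 from their range of 2.56 to 14.1. RMA, Affymetrix Expression Console 1.1 and R 2.9.2 are named per the submitters' processing notes without their roles, and whether all 24 arrays were normalized together is not given in the sources used here. Of 24200 probe sets, 20760 name 1 gene in the platform annotation, 1140 several and 2300 none. Where a gene had several single-gene probe sets (804 genes), the one with the highest mean was kept, with no filter on low values. Stages were compared with limma 3.58.1 (R 4.3.3) over all 24 arrays with 1 coefficient per stage, and Benjamini-Hochberg adjustment ran over 19351 genes, two-sided at 0.05. The fit was tested on simulated data. Arrays carry no read depth, so their number, 8 per stage, limits the precision. Each array's stage comes from the labels.

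Members and comparison lists were chosen with earlier results of these data known, and all lists were written from general knowledge. Named in each comparison are all genes past the threshold (if over 12, the 8 largest rises and 8 largest falls) and the 3 genes nearest to it on either side. Also named are the 3 largest SDs, genes outside the subunit of their name and genes with discordant probe sets. From the mitochondrial and ribosomal comparison lists, up to 4 called genes at E16.5 against E12.5 are named, and every gene of the short lists. Marker lists of cell types are given as counts or means, with only some of their genes named. Promoters shown are those of at most 3 of the largest rises and falls. Genes named beyond this were chosen after their values were seen. Subunits follow published structures from general knowledge. Promoters are RefSeq windows on GRCm38.p6, matched by symbol for 68 of 77 genes. Alternatives covered the fit, normalization, filters, probe sets and arrays left out. Transcripts of the mitochondrial genome were not analysed here.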

Additional observations from a re-analysis of the deposited data

Results flagged for a closer look

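In 31 named genes and the median over all 77, each stage was searched for an array standing apart from the other 7, by Dixon's criterion. Of 96 groups 3 were picked out, and chance picks out about 1 in 20. Mrpl41 lay at 11.18 in E16.5 replicate 6, while the other arrays of that stage lay between 11.48 and 11.70. Mrps12 lay at 9.78 in E11.5 replicate 8, against 10.28 to 10.70 in the others. Mrps18a lay at 10.41 in E12.5 replicate 4, against 9.64 to 10.00.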

How the results depend on the processing

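From E11.5 to E12.5 the counts were 0 and 0 under every alternative, with the median between 0.11 and 0.16 when single arrays were left out and at 0.06 with arrays centred on the 75th percentile. For E16.5 against E12.5, 20 higher became 9 without E16.5 replicates 1 to 4 (median 0.027) and 7 with the hepatocyte covariate, and 18 to 22 without single arrays (median 0.11 to 0.22). The 2 lower became 1 with the replicate block, 75th-percentile centring, trend and robust options, and without E12.5 replicates 2 and 3 or E16.5 replicates 5 to 8; 4 without E16.5 replicates 1 to 4; 0 with the covariate; and 1 to 2 without single arrays. For E16.5 against E11.5, 31 higher became 19 and 4 under the same 2 changes and 26 to 34 without single arrays (median 0.25 to 0.34). The 2 lower became 4 with quantile normalization or without E16.5 replicates 1 to 4, 1 without replicates 5 to 8, 0 with the covariate, and 2 to 4 without single arrays (4 without E11.5 replicate 4). The cause was not tested. Without single arrays, 18 of 22 and 27 of 33 calls remained each time. Under all other alternatives 6 (Mrpl9, Mrpl30, Mrpl42, Mrpl51, Mrps28 and Mrps36) and 4 (Mrpl30, Mrpl42, Mrpl51 and Mrps36) remained. Mrps27 has no value with the dimmer 50% of genes left out. No called value changed sign. Replicate numbers did not pair the arrays (24 correlations from -0.28 to 0.09, and 2 of 24 arrays closest to their own number). With the replicate block the counts were 19 higher and 1 lower against E12.5, and 30 and 3 against E11.5. Shares of all genes are given above only for the sets of arrays left out and for the covariate. For the other settings, the counts alone do not show whether these genes moved apart from all genes.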
